A study of Mus musculus with 7 samples.

Results

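The 10 naive pluripotency transcription factors described here were Nanog, Pou5f1, Esrrb, Klf2, Klf4, Klf5, Tbx3, Tfcp2l1, Prdm14 and Zfp42. They were taken by gene name from the 22556 genes counted in every library, not by a filter on their values, but with earlier results of these data known. Each gene was read in 3 ways, as all fragments, as fragments assigned to the Cast allele and as fragments assigned to the Dom allele, and its allelic ratio was set against that of its chromosome. All 10 passed the filters on low counts of every test.

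Mouse embryonic stem cells (mESCs) hold the naive state through a mutually reinforcing network of these factors around Pou5f1 (OCT4) and Nanog. Several inputs feed it: the cytokine LIF acts through STAT3 on Klf4 and Tfcp2l1, the Wnt and GSK3 branch relieves TCF7L1 repression of Esrrb and other targets, and PI3K signalling sustains Tbx3. The network is dismantled when cells leave naive pluripotency, and in female mESCs this exit accompanies X inactivation.

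The study measured chromatin-associated RNA by sequencing (ChrRNA-seq), which captures nascent transcripts with their introns. The cells were female F1 hybrid mESCs carrying a 129/Sv (Dom) and a CAST/EiJ (Cast) genome, grown in serum with LIF on feeder cells that were removed by pre-plating. In iXist-ChrX-Dom (n = 4) a doxycycline-inducible promoter drives Xist on the Dom X chromosome, and in iXist-ChrX-Cast (n = 3) Xist on the Cast homolog carries it. They are called the Dom line and the Cast line below. All 7 libraries came from mESCs after 10 days with 1 µg/mL doxycycline, so Xist was induced in both groups and no uninduced or differentiated sample was analyzed here. By the labels each line is a single clone, so the Xist allele and the clone cannot be told apart. The deposited files of Cast-line replicates 1 and 2 carry a clone name that differs by 1 character from that in the labels and from that of replicate 3, so whether the 3 Cast-line libraries are of the same clone is in doubt. Nothing in the labels says that replicates were separate cultures, and p-values measure only the spread between these libraries. For Dom-line replicates 3 and 4 the description field differs in induction time from the title and treatment, which were followed.

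Libraries held 14877384 to 24309806 fragments counted in genes, of which 44.2 to 46.4% were assigned to an allele. The 10 factors made up 0.150 to 0.193% of each library. Replicates 1 and 2 carry another file naming scheme than replicates 3 and 4, and the libraries part the same way. Between them 4606 of 15186 genes differed with the line in the fit (edgeR quasi-likelihood test, adjusted p under 0.05, as for every call below). Whole chromosomes also differed in allelic share between the lines, with Cast-line replicate 3 apart from its replicates on chromosomes 1, 8 and 14, and those values are given beside the members concerned. Of the pluripotency markers, Pou5f1, Nanog, Zfp42, Sall4 and Dppa5a were all counted in every library. Sox2 was listed at 0 in all 7, and its locus lies inside Sox2ot on the same strand, where fragments shared by both genes were not counted.

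The RefSeq table (GRCm38.p6) held promoter entries for 7 of the 10 factors, Nanog, Pou5f1, Esrrb, Klf2, Klf4, Tfcp2l1 and Zfp42. Those of 4 are shown as examples: Nanog and Klf4 leaned to the Cast allele in both lines, and Klf2 and Zfp42 share chromosome 8. Each run gives the bases before the transcription start, 5′ to 3′ on the strand of the gene. Capitals mark a POU element (ATGCAAA or its reverse TTTGCAT), a SOX element (CATTGT or ACAATG), a KLF-type box (GGGNGTGG or CCACNCCC) or a GC box (GGGGCGGGG or CCCCGCCCC).
Nanog, chr6:122707239-122707488, plus strand: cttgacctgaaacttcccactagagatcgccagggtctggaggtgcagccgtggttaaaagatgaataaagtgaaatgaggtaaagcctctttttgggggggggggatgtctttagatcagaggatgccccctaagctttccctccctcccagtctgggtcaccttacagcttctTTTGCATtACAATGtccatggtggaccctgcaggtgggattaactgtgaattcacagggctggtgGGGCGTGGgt
Klf4, chr4:55532476-55532725, minus strand: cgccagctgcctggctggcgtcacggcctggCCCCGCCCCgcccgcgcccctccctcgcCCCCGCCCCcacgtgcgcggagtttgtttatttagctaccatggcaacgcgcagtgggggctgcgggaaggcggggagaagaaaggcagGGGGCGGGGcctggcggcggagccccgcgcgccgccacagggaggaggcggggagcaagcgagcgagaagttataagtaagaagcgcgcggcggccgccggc
Klf2, chr8:72318812-72319032, plus strand: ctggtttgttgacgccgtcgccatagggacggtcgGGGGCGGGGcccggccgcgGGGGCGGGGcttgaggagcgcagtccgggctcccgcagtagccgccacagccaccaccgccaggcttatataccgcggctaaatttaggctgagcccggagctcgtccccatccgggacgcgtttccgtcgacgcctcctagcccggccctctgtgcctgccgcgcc
Zfp42, chr8:43307010-43307259, minus strand: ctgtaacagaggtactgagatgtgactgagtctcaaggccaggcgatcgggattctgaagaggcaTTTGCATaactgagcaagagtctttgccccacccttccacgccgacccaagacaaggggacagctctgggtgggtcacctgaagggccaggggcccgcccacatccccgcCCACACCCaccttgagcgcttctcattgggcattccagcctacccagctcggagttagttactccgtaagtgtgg

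For Klf2 the last 29 bases before the start lie in an annotated exon and are not shown. In the Nanog entry shown the POU element began 75 bases before the start and the SOX element 67, in the close arrangement that OCT4 and SOX2 are known to bind together. A KLF-type box began 10 bases before that start. In another Nanog entry, not shown, the POU and SOX elements began 151 and 143 bases before its start and KLF-type boxes 86 and 52. Zfp42 held a POU element 185 bases and a KLF-type box 75 bases before its start. Klf4 held 3 GC boxes and Klf2 held 2, and no marked element overlapped another. Tfcp2l1, not shown, held KLF-type boxes 61 and 47 bases before its start. In the 250 bases before the start of all 32851 promoter entries, 4.12% held the POU element, 10.7% the SOX element, 15.9% the KLF-type box and 10.4% the GC box. Of the 7 factors with an entry, 2, 2, 4 and 3 held these elements in any of their entries. A STAT element (TTCCNGGAA on either strand) was in 0.913% of entries and in none of the members' windows. These matches describe letters only and are not evidence of binding.

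The level of each factor was compared per length, in depth-normalized counts (CPM, with library sizes scaled by the TMM method) per kb of transcript span, introns included. Zfp42 (REX1), a zinc-finger protein and classical marker of the naive state, was highest at 38.6 ± 7.72 CPM per kb (SD, n = 7), above 99.2% of the 15186 genes tested. Pou5f1, the POU factor at the core of pluripotency, followed at 16.4 ± 4.16. The 7 libraries gave no overlap between these genes.

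The Krüppel-like factors Klf4 and Klf2 stood at 11.5 ± 2.85 and 9.71 ± 2.25 CPM per kb (SD, n = 7) and the homeobox factor Nanog at 9.61 ± 1.35, with Klf4 above Klf2 in only 3 of 7 libraries and Klf2 above Nanog in 5. Klf5, Tbx3 and Tfcp2l1 formed a group with overlapping ranges at 6.91 ± 1.11, 6.69 ± 2.80 and 6.25 ± 1.41 CPM per kb. Tbx3, a T-box factor, was above Tfcp2l1, a grainyhead-like factor, in only 3 libraries. The orphan nuclear receptor Esrrb (2.98 ± 0.351) and Prdm14 (2.57 ± 0.288), which represses FGF receptor signalling, were lowest. Esrrb exceeded Prdm14 in all 7 libraries although their ranges overlapped, and all 7 libraries placed Tfcp2l1 above Esrrb with no overlap. This order holds per kb of span, which for Esrrb is 160.5 kb. Before division by length Esrrb had 452 ± 62.7 CPM in the Dom line (SD, n = 4) and 512 ± 23.7 CPM in the Cast line (SD, n = 3). On the log2 CPM scale Tbx3 varied most among libraries (SD 0.58) and Prdm14 least (0.16).

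**Figure D1:**
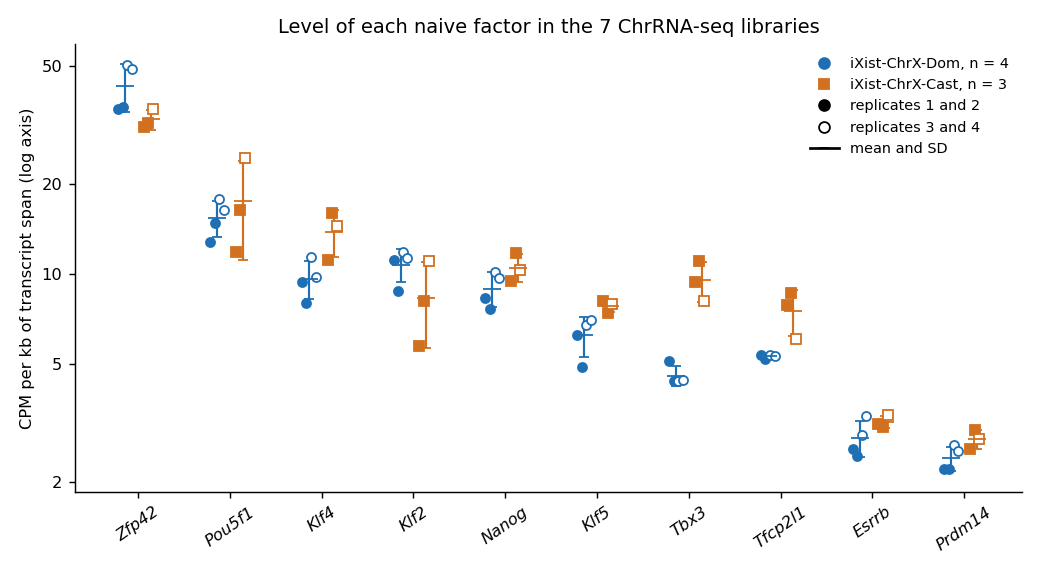
Level of each factor in CPM per kb of its transcript span (log axis) in iXist-ChrX-Dom (circles, n = 4) and iXist-ChrX-Cast (squares, n = 3), with the mean and SD; filled points are replicates 1 and 2 and open points replicates 3 and 4. Zfp42 lies above all others at 31.1 to 50.2, and Esrrb and Prdm14 lie below 3.4.

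The next comparison asked whether the factors differed between the lines. Of the 10 members, 1 was called in total counts and was lower in the Dom line (Tbx3), beside 2.92% of all genes tested. The median log2 fold change of the members was -0.23 (the Dom line over the Cast line), beside -0.003 over all genes tested. In this bulk RNA, fewer cells that transcribe a gene and less RNA per cell cannot be told apart.

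Tbx3 (chromosome 5, 119670861 to 119684724) had 70.6, 60.7, 60.5 and 61.2 CPM in Dom-line replicates 1 to 4 and 131, 153 and 113 CPM in Cast-line replicates 1 to 3. The groups did not overlap, and every Cast-line library lay above all Dom-line libraries. The log2 fold change was -1.06 (SE 0.12, edgeR adjusted p = 0.00316), and the call held when each library was left out (-1.16 to -0.95, highest adjusted p = 0.0296). Among all genes tested, 16.0% did not overlap between the lines in CPM.

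Klf4, a direct STAT3 target (chromosome 4, 55527136 to 55532475), had 50.2, 42.7, 61.0 and 52.4 CPM in the Dom line against 59.6, 85.4 and 77.2 CPM in the Cast line. The groups overlapped only through Dom-line replicate 3 and Cast-line replicate 1. The log2 fold change was -0.52 (SE 0.15) and did not pass the threshold (edgeR adjusted p = 0.0956).

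Tfcp2l1 (chromosome 1, 118627944 to 118685168), which both LIF and Wnt signalling act on, had 306, 297, 306 and 303 CPM in the Dom line against 450, 494 and 345 CPM in the Cast line. The groups did not overlap, and the Dom-line values were nearly level while Cast-line replicate 3 lay nearest to them. The log2 fold change was -0.50 (SE 0.12) and missed the threshold (edgeR adjusted p = 0.0551). Without Cast-line replicate 3 it was -0.64 with an adjusted p of 0.00569.

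Klf5, which shares targets with Klf2 and Klf4 (chromosome 14, 99298690 to 99313409), had 91.9, 71.9, 99.4 and 103 CPM in the Dom line against 120, 109 and 117 CPM in the Cast line. The groups did not overlap, with Dom-line replicate 4 and Cast-line replicate 2 nearest to each other. The log2 fold change of -0.33 (SE 0.13) was not called (edgeR adjusted p = 0.214).

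Zfp42 and Klf2, both on chromosome 8 (43295066 to 43307009 and 72319061 to 72321654), had positive fold changes. Zfp42 had 428, 435, 600 and 583 CPM in the Dom line against 372, 383 and 429 CPM in the Cast line. The groups met only at Dom-line replicate 1 and Cast-line replicate 3, and the log2 fold change was 0.37 (SE 0.14, edgeR adjusted p = 0.208). Klf2, whose transcription MEK and ERK signalling lowers, had 28.9, 22.7, 30.9 and 29.3 CPM against 14.8, 21.1 and 28.6 CPM. Its groups overlapped through Cast-line replicate 3, and its difference was 0.37 in log2 units (SE 0.21, edgeR adjusted p = 0.391).

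Pou5f1 (chromosome 17, 35506031 to 35510777) had 61.0, 70.7, 84.5 and 77.6 CPM in the Dom line against 56.1, 77.8 and 117 CPM in the Cast line. Its Cast-line libraries held the lowest and the highest value of all 7, and the log2 fold change of -0.19 (SE 0.21) turned to 0.13 without Cast-line replicate 3. Nanog (chromosome 6, 122707488 to 122714633) had 59.2, 54.5, 72.5 and 69.3 CPM against 67.9, 83.8 and 73.6 CPM. Its groups overlapped, and the difference was -0.23 in log2 units (SE 0.13, edgeR adjusted p = 0.382).

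Esrrb (chromosome 12, 86361116 to 86521628) had 416, 394, 464 and 536 CPM against 504, 493 and 539 CPM, with overlapping groups and a log2 fold change of -0.18 (SE 0.12). Prdm14 (chromosome 1, 13113427 to 13127163) had 30.3, 30.4, 36.5 and 34.9 CPM against 35.7, 41.1 and 38.4 CPM. Its groups overlapped, at a log2 fold change of -0.22 (SE 0.12). Neither gene passed the threshold (edgeR adjusted p = 0.489 for Esrrb and 0.380 for Prdm14).

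The replicate number or the sample set in the fit changed calls. With the number as a block, in which Dom-line replicate 4 has no partner and adds nothing to the line term, 4 members were called, all lower in the Dom line, beside 11.8% of genes. Klf4, Klf5 and Tfcp2l1 joined Tbx3 in that fit (edgeR adjusted p = 0.00400, 0.0123 and 0.00966). With the sample set as a covariate 5 members were called beside 15.8% of genes. DESeq2, with no such term, called Tbx3, Klf4 and Tfcp2l1, 3 members beside 7.20% of genes. In the fit with the sample set the same 4 were lower and Zfp42 was higher in the Dom line (log2 fold change 0.30, edgeR adjusted p = 0.0283).

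Markers of other cell types that the cultures could hold were read in the same libraries. The summed level of 10 feeder fibroblast markers was 63.0 to 80.1 CPM in the Dom line and 61.6 to 70.2 CPM in the Cast line, and none of the 9 tested was called by edgeR (0 at an unadjusted p under 0.05, and 0 by DESeq2). Col1a2, a fibrillar collagen gene that fibroblasts make in bulk, had 12.1 ± 1.93 CPM in the Dom line (SD, n = 4) and 13.1 ± 2.94 CPM in the Cast line (SD, n = 3), and no marker of this list was at 0 in all libraries. The part of feeder RNA in the values of Tbx3 and Klf4 was not tested.

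Primitive endoderm markers summed to 275 to 479 CPM in the Dom line and 309 to 449 CPM in the Cast line, carried mostly by the laminin gene Lama1 (220 ± 55.6 CPM in the Dom line and 246 ± 47.8 CPM in the Cast line). The defining factor Gata4 was at 4.19 ± 1.35 and 4.89 ± 1.51 CPM, and none of the 7 tested was called by edgeR (0 at an unadjusted p under 0.05, and 0 by DESeq2). In the fit with the sample set 1 was called beside 15.8% of all genes, the receptor gene Pdgfra, lower in the Dom line (log2 fold change -0.52, edgeR adjusted p = 0.0353). Pdgfra lies on chromosome 5, where the median log2 fold change was -0.40 with the line alone in the fit. It was not called when libraries were scaled chromosome by chromosome without the sample set (edgeR adjusted p = 0.979).

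Primed epiblast markers summed to 54.9 to 76.7 CPM in the Dom line and 69.9 to 93.5 CPM in the Cast line, and neural markers to 33.7 to 56.3 and 28.6 to 32.6 CPM, with Sox1 at 0 in every library. No marker of either list was called by edgeR, of 5 and 3 tested (2 and 1 at an unadjusted p under 0.05, and 1 of each list by DESeq2). With the sample set in the fit, which called 15.8% of all genes, the neural progenitor genes Pax6 and Nes were higher in the Dom line (log2 fold change 1.33 and 0.55, edgeR adjusted p = 1.27e-05 and 0.0278). The neural gene Tubb3 was at -0.06 and not called, and Olig2 and Fabp7 had at most 4 and 3 fragments in any library. The primed epiblast ligand Fgf5 was lower in that fit (-0.76, adjusted p = 0.00480). Fgf5 lies on chromosome 5, where the median log2 fold change was -0.40 with the line alone in the fit. It was not called when libraries were scaled chromosome by chromosome without the sample set (edgeR adjusted p = 0.515). Of the other primed markers, with the sample set in the fit, Otx2 and Pou3f1 were at -0.31 and -0.64 and Zic2 and T at 0.29 and 0.39, none of them called. The part of such cells in the values of the factors was not tested.

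**Figure D2:**
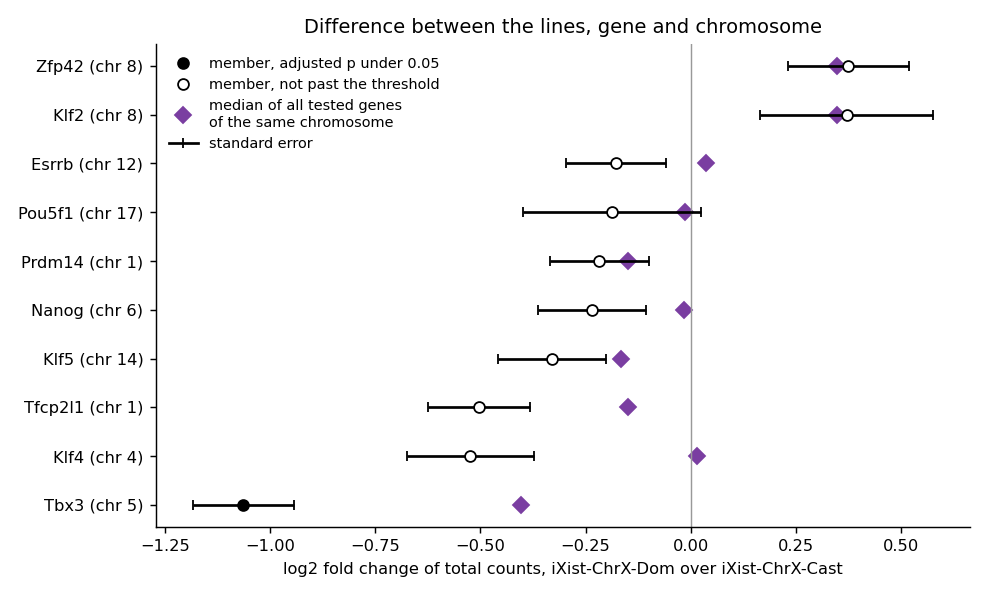
Log2 fold change of total counts, iXist-ChrX-Dom over iXist-ChrX-Cast, of each factor (circles) beside the median of all tested genes of its chromosome (diamonds). Circles are filled where the edgeR adjusted p was under 0.05, and bars are standard errors back-calculated from the edgeR F statistic. Tbx3 is the only filled point, and Klf2 and Zfp42 sit on the median of chromosome 8.

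Chromosome by chromosome, part of these differences was shared with neighbors. The median log2 fold change of tested genes was 0.35 on chromosome 8 (806 genes), -0.40 on chromosome 5 (964 genes), -0.17 on chromosome 14 (525 genes) and -0.15 on chromosome 1 (906 genes), and within 0.04 of 0 on chromosomes 4, 6, 12 and 17. Relative to the chromosome median, Zfp42 differed by 0.03 and Klf2 by 0.02 on the log2 scale, and 55.5% and 55% of chromosome 8 genes had a fold change no higher than theirs.

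Tbx3 lay 0.66 below the median of chromosome 5, where 2.6% of genes had a fold change as low or lower. Klf4 lay 0.54 below chromosome 4, at 3.4%, and Tfcp2l1 0.35 below chromosome 1, at 9.9%. Prdm14, on the same chromosome, lay only 0.07 below it. Esrrb, Nanog, Pou5f1 and Klf5 lay 0.21, 0.22, 0.17 and 0.17 below their chromosomes.

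When each library was scaled chromosome by chromosome, 1 member was called beside 0.678% of genes tested, again Tbx3 and again lower in the Dom line (log2 fold change -0.67, SE 0.13, edgeR adjusted p = 0.0470). Klf4 (-0.55) and Tfcp2l1 (-0.35) were not called in that fit (adjusted p = 0.138 and 0.161). Klf2 and Zfp42 were at 0.04 and 0.02. With the sample set added to the chromosome scaling, a fit chosen after seeing the data, 3 members were called beside 8.36% of genes, Tbx3, Klf4 (adjusted p = 0.00606) and Tfcp2l1 (adjusted p = 0.0244), all lower in the Dom line.

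Replicates 1 and 2 were also compared with replicates 3 and 4. With the line in the fit 3 of 10 members were called, all lower in replicates 1 and 2, beside 30.3% of all genes tested. These were Pou5f1 (log2 fold change -0.50, SE 0.12, edgeR adjusted p = 0.00525), Klf2 (-0.40, SE 0.13, adjusted p = 0.0341) and Zfp42 (-0.35, SE 0.09, adjusted p = 0.00707). Zfp42 remained past the threshold whichever library was left out. Pou5f1 fell to an adjusted p of 0.135 without Cast-line replicate 3, and Klf2 was lost without that library (0.350), Cast-line replicate 1 (0.0553), Dom-line replicate 2 (0.0737) or Dom-line replicate 3 (0.0751).

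Among the 4 Dom-line libraries alone, 3 members were called beside 18.7% of genes. Zfp42 (-0.46), Nanog (-0.33) and Esrrb (-0.31) were lower in replicates 1 and 2 (edgeR adjusted p = 0.00349, 0.0375 and 0.0376). For Zfp42 the 2 lower libraries were at 428 and 435 CPM and the others at 600 and 583.

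Within each pair of replicate numbers, the difference between the lines kept its sign for all 10 factors, with no test because the second comparison holds a single Cast-line library. The mean log2 CPM of Tbx3 in the Dom line minus that in the Cast line was -1.11 in replicates 1 and 2 and -0.89 in replicates 3 and 4. For Klf4 the values were -0.62 and -0.45. Tfcp2l1 was at -0.65 and -0.18, Klf2 at 0.53 and 0.07, and Pou5f1 at -0.01 and -0.52, so the size of these differences depended on the replicates compared.

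**Figure D3:**
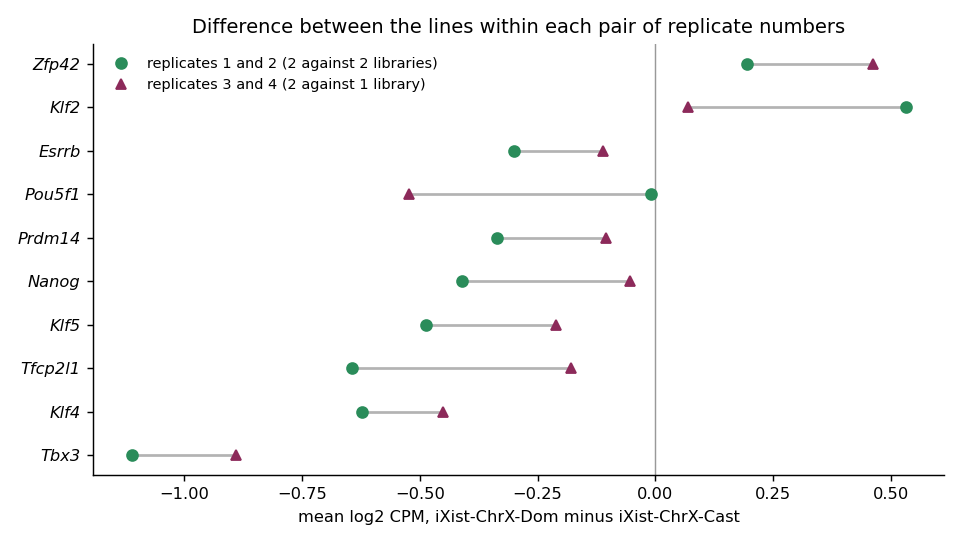
Mean log2 CPM in iXist-ChrX-Dom minus iXist-ChrX-Cast for each factor, within replicates 1 and 2 (circles, 2 against 2 libraries) and within replicates 3 and 4 (triangles, 2 against 1 library). Tbx3 is lowest in both, at -1.11 and -0.89, and the 2 values of Pou5f1, Klf2 and Tfcp2l1 lie far apart.

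The hybrid genome allowed each factor to be read by allele. The allelic ratio is given as the Cast share, the percentage of allele-assigned fragments that came from the Cast allele, and tested as log2 of Cast over Dom fragments minus the chromosome median of the same library (limma). The autosomal median share was 47.1 to 48.0% in the 7 libraries. In the Dom line 7 members departed from their chromosome beside 52.4% of genes tested, and in the Cast line 9 members beside 47.4%. Departures from the chromosome were thus common among all genes. With genes within 10 Mb as the reference 8 members were called in each line beside 49.6% and 45.8% of genes, and with all autosomal genes 8 in each line beside 54.3% and 51.3%.

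Relative to its chromosome Prdm14 leaned furthest to the Cast allele, although in the Cast line the mean Cast shares of Esrrb (72.9%) and Nanog (71.4%) were above its own (70.6%). Its Cast share was 76.2, 72.0, 79.6 and 80.8% in the Dom line and 66.8, 68.5 and 76.7% in the Cast line, from 382 to 650 allelic fragments per library. The chromosome 1 median was 46.6 ± 0.116% (SD, n = 4) and 43.6 ± 2.12% (SD, n = 3), where Cast-line replicate 3 was at 46.0% and the others at 42.7 and 42.0%, far below the Prdm14 share of every library. The departure was 1.96 (SE 0.11) and 1.65 (SE 0.12) in log2 units (limma adjusted p = 1.50e-09 and 6.63e-08), and 14 and 19 of 786 genes of the chromosome had a higher Cast share.

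Nanog, read from 588 to 961 allelic fragments, had Cast shares of 76.2, 73.3, 67.9 and 68.6% in the Dom line and 73.3, 72.1 and 68.7% in the Cast line, against chromosome 6 medians of 45.9 ± 0.455% and 46.4 ± 0.240%. The 95% Wilson interval of the lowest library was 64.6 to 71.0%, which covers counting error only, as do all such intervals here. The departure was 1.57 (SE 0.09) and 1.53 (SE 0.10) in log2 units (limma adjusted p = 1.54e-09 and 1.46e-08), nearly the same in the lines. The Cast allele of Nanog and Prdm14 thus gave most of the assigned fragments in all 7 libraries.

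Esrrb, with 4120 to 6321 allelic fragments, had Cast shares of 74.2, 74.2, 75.1 and 73.5% in the Dom line and 72.4, 72.2 and 74.1% in the Cast line. Its chromosome is itself skewed, with medians of 61.2 ± 0.692% and 61.6 ± 0.831%, and the genes within 10 Mb were at 70.0 ± 0.419% and 70.7 ± 0.319%. Against the chromosome the departure was 0.88 and 0.76 in log2 units, and against the neighborhood 0.31 and 0.16 (limma adjusted p = 1.76e-06 and 0.00347). Most of the Cast excess of Esrrb was therefore shared with the surrounding genes.

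Klf4 had Cast shares of 61.0, 56.4, 55.6 and 60.5% in the Dom line and 56.4, 56.7 and 52.0% in the Cast line, against 47.4 ± 0.243% and 47.8 ± 0.210% for chromosome 4. Every library lay above its chromosome, by 0.64 (SE 0.09) and 0.42 (SE 0.10) in log2 units (limma adjusted p = 2.10e-05 and 0.00312). Tfcp2l1 leaned the other way, with 39.9, 39.2, 37.6 and 38.4% in the Dom line and 35.3, 37.6 and 37.9% in the Cast line from 3729 to 6074 fragments. Every library lay below chromosome 1, with departures of -0.46 (SE 0.04) and -0.40 (SE 0.04) in log2 units (limma adjusted p = 1.42e-07 and 3.75e-06). Prdm14 and Tfcp2l1, on the same chromosome, thus departed from it in opposite directions.

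On chromosome 8 the reference itself moved between the lines, from 63.5 ± 0.308% in the Dom line (n = 4) to 46.7 ± 2.83% in the Cast line (n = 3), where replicate 3 was at 50.0% and the others at 45.2 and 45.0%. Zfp42 followed it, with Cast shares of 66.6, 66.4, 68.4 and 67.2% in the Dom line and 50.5, 50.5 and 53.5% in the Cast line from 3529 to 7679 fragments. The groups did not overlap, a property of 23.1% of genes tested, and Zfp42 sat 0.24 (SE 0.03) and 0.28 (SE 0.04) above its chromosome in log2 units (limma adjusted p = 1.74e-05 and 2.39e-05).

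Klf2 was read from only 39 to 133 allelic fragments. Its Cast shares were 74.8, 61.7, 61.4 and 66.3% in the Dom line and 71.8, 56.6 and 57.0% in the Cast line, and the 95% Wilson interval of the shallowest library ran from 56.2 to 83.5%. It was above its chromosome in the Cast line (0.88, SE 0.23, limma adjusted p = 0.00643), but not past the threshold without replicate 1 of that line (adjusted p = 0.0929), and in the Dom line the departure of 0.17 (SE 0.20) was not called.

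On chromosome 5 the median was 45.8 ± 0.256% in the Dom line (n = 4) and 63.6 ± 0.669% in the Cast line (n = 3). Tbx3 followed it as well, with Cast shares of 53.7, 50.4, 49.7 and 47.6% against 66.5, 69.1 and 65.7%, and the groups did not overlap. It lay 0.26 (SE 0.07) and 0.23 (SE 0.08) above its chromosome in log2 units (limma adjusted p = 0.00395 and 0.0197). The second of these was lost without Cast-line replicate 2 (adjusted p = 0.163) and against the genes within 10 Mb (0.0521).

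Klf5 had Cast shares of 43.9, 47.6, 44.3 and 45.1% in the Dom line and 52.0, 48.9 and 45.9% in the Cast line. It lay below chromosome 14 in all 7 libraries, where the medians were 47.4 ± 0.238% and 52.4 ± 2.83% and Cast-line replicate 3 was at 49.1% against 53.9 and 54.2% in the others. The departure of -0.19 (SE 0.06) was called in the Cast line (limma adjusted p = 0.0184) and that of -0.13 (SE 0.05) in the Dom line was not (0.0593). The first was lost without Cast-line replicate 2 (0.157) or replicate 3 (0.0520), and the second was called without Dom-line replicate 2 (0.0320). Against the genes within 10 Mb both were called (0.00374 in the Dom line and 0.00533 in the Cast line).

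Pou5f1, from 118 to 416 allelic fragments, was not called in either line. Its Cast shares were 41.6, 46.8, 45.9 and 46.3% in the Dom line and 32.2, 45.4 and 49.8% in the Cast line, around chromosome 17 medians of 47.0 ± 0.297% and 47.0 ± 0.276%. The lowest library, Cast-line replicate 1, had a 95% Wilson interval of 24.4 to 41.1%. Without Cast-line replicate 3 the departure in that line was called (-0.48, limma adjusted p = 0.0419).

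**Figure D4:**
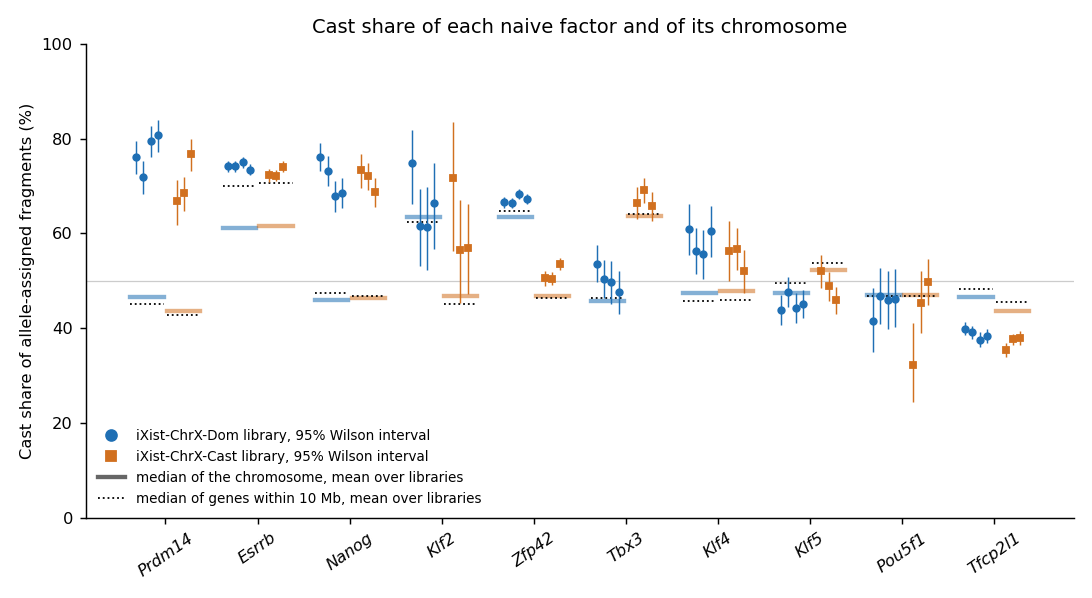
Cast share of allele-assigned fragments in percent for each factor in the iXist-ChrX-Dom (circles) and iXist-ChrX-Cast (squares) libraries, with 95% Wilson intervals, beside the median of its chromosome (thick lines) and of genes within 10 Mb (dotted lines), each as the mean over libraries. Prdm14 and Nanog stand far above their chromosome in all 7 libraries, Tfcp2l1 below it, and Zfp42 and Tbx3 shift between the lines together with theirs.

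Relative to its chromosome, no factor was called different in allelic ratio between the lines. By limma 0 of 10 members were called beside 3.42% of genes tested, with 2 at an unadjusted p under 0.05, Klf2 (-0.71, SE 0.31, adjusted p = 0.365) and Esrrb (0.12, SE 0.05, adjusted p = 0.370). The edgeR test on the allelic counts also called 0, with 1 at an unadjusted p under 0.05. With genes within 10 Mb as the reference limma called 0, beside 2.37% of genes, with 3 at an unadjusted p under 0.05. The standard errors of the other 8 ranged from 0.05 for Zfp42 to 0.21 for Pou5f1 in log2 units, which sets the size of difference that could be seen. Against all autosomal genes instead of the chromosome, 2 members were called beside 16.4% of genes, Zfp42 (0.95, limma adjusted p = 3.39e-09) with a higher and Tbx3 (-1.0, adjusted p = 4.56e-06) with a lower Cast share in the Dom line.

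The counts of each allele were then compared between the lines. On the Cast allele 3 members were called beside 13.9% of genes tested, and on the Dom allele 2 members beside 4.82%. Without overlap between the lines were 6 members on the Cast allele, beside 21.2% of genes, and 3 on the Dom allele, beside 14.4%.

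For Tbx3 the Cast allele gave 14.5, 12.2, 12 and 11.2 CPM in the Dom line and 35.2, 40.8 and 29.7 CPM in the Cast line. The Dom allele gave 12.5, 11.9, 12.2 and 12.3 CPM against 17.7, 18.2 and 15.5 CPM. Neither allele overlapped between the lines. The log2 fold change was -1.5 (SE 0.14, edgeR adjusted p = 9.12e-06) on the Cast allele and -0.49 (SE 0.12, adjusted p = 0.0341) on the Dom allele. The Cast call held whichever library was left out, but the Dom call was lost on leaving out any library other than Cast-line replicate 3 (adjusted p up to 0.227). The median Cast share of chromosome 5 was likewise lower in the Dom line (45.8% against 63.6%). Relative to that median the ratio of Tbx3 differed by 0.03 between the lines (limma adjusted p = 0.957).

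Tfcp2l1 was lower in the Dom line on both alleles. Its Cast allele gave 76.7, 77.0, 74.7 and 75.8 CPM in the Dom line against 102, 117 and 83.9 CPM in the Cast line, and its Dom allele 115, 120, 124 and 122 CPM against 187, 193 and 138 CPM, with no overlap on either. The log2 fold changes were -0.41 (SE 0.12) and -0.52 (SE 0.13) (edgeR adjusted p = 0.0460 and 0.0380). Both calls were lost on leaving out any library other than Cast-line replicate 3 (adjusted p up to 0.311 and 0.276).

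For Zfp42 the Cast allele gave 194, 207, 280 and 262 CPM in the Dom line against 125, 129 and 158 CPM in the Cast line, with no overlap. Its log2 fold change was 0.78 (SE 0.16, edgeR adjusted p = 0.00329), called whichever library was left out. The Dom allele gave 97.2, 105, 129 and 128 CPM against 123, 127 and 137 CPM, with overlapping groups and a difference of -0.17 in log2 units (SE 0.13, adjusted p = 0.611). The positive fold change of Zfp42 in total counts, itself not called, thus lay on the Cast allele. The median Cast share of chromosome 8 was likewise higher in the Dom line (63.5% against 46.7%). Relative to that median the ratio of Zfp42 differed by -0.03 between the lines (limma adjusted p = 0.868).

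Klf2 on the Cast allele gave 3.77, 3.33, 3.73 and 3.42 CPM in the Dom line against 1.97, 2.19 and 2.86 CPM in the Cast line. The groups did not overlap, and the log2 fold change of 0.60 (SE 0.20) was not called (edgeR adjusted p = 0.0729), but it was with the replicate block (0.0281) and without Cast-line replicate 3 (0.0275). Klf5 on the Cast allele was at -0.41 (SE 0.14, adjusted p = 0.0720), called with the block (0.00287) and without Dom-line replicate 4 (0.0467).

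On the Dom allele the block added Klf4 (-0.48, edgeR adjusted p = 0.0250, against 0.213 without it) and Prdm14 (-0.49, adjusted p = 0.0277, against 0.100 without it). Prdm14 gave 5.88, 6.99, 6.03 and 5.21 CPM from the Dom allele in the Dom line and 8.93, 10.4 and 7.21 CPM in the Cast line, with no overlap, and was also called without Cast-line replicate 3 (0.0243). With the block 5 members were called on the Cast allele beside 20.0% of genes, and 4 on the Dom allele beside 9.66%. With the sample set instead, 5 and 4 were called beside 21.9% and 11.1%. Nanog, Esrrb and Pou5f1 were called on neither allele, with log2 fold changes of -0.27, -0.11 and -0.22 on the Cast allele and -0.25, -0.21 and -0.23 on the Dom allele.

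**Figure D5:**
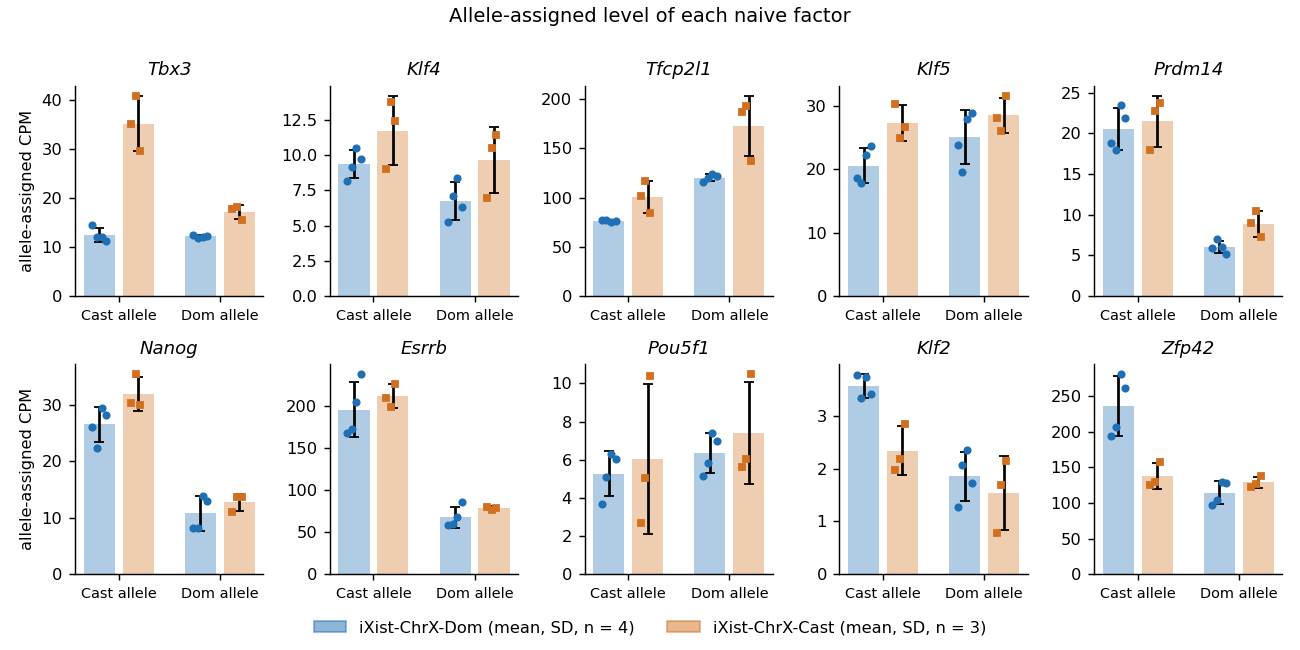
Allele-assigned level in CPM of each factor on the Cast and the Dom allele in iXist-ChrX-Dom (n = 4) and iXist-ChrX-Cast (n = 3); bars are means, error bars SD and points libraries, and each panel has its own axis. The Cast allele of Tbx3 is lower and that of Zfp42 higher in iXist-ChrX-Dom without overlap, and Tfcp2l1 is lower on both alleles. The median Cast shares of the chromosomes of Tbx3 and Zfp42 differ between the lines in the same directions.

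As a description of pattern, log2 CPM was correlated across the 7 libraries, which share the line, the sample set and the depth of each library between genes. Nanog and Prdm14 were each other's nearest factor (Pearson r = 0.975), as were Tbx3 and Tfcp2l1 (0.939) and Esrrb and Klf5 (0.873), and the nearest factor to Klf4 was Prdm14 (0.937). Zfp42 was nearest to Klf2 (0.73) and Pou5f1 was least like any other factor, with Klf2 nearest (0.565).

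Among genes of other chromosomes the most alike were Cwc15 for both Nanog (r = 0.98) and Prdm14 (r = 0.995), Pusl1 for Pou5f1 (0.992), Cgnl1 for Esrrb (0.986), Zbtb4 for Klf2 (0.990), Ubxn1 for Klf4 (0.986), Ulbp1 for Klf5 (0.988), Tmem64 for Tbx3 (0.993), Ly75 for Tfcp2l1 (0.988) and Tipin for Zfp42 (0.996). Between 56 and 318 genes exceeded 0.9 for each factor.

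Other genes of the network were read as lists. Among all genes tested 2.92% were called between the lines, 15.8% with the sample set in the fit and 7.20% by DESeq2. These shares stand beside every list below. Of 25 genes of the wider pluripotency network 23 were tested, and 0 were called higher in the Dom line. The median log2 fold change was -0.10 beside -0.003 over all genes. By edgeR 8 were at an unadjusted p under 0.05, and DESeq2 called 4. Tdgf1 (Cripto), a Nodal co-receptor, was lower in the Dom line, at 149 ± 11.6 CPM (SD, n = 4) against 214 ± 22.4 CPM (SD, n = 3; log2 fold change -0.52, edgeR adjusted p = 0.0365), a call that was lost when libraries were scaled by chromosome (adjusted p = 0.0530). With the sample set in the fit 2 genes were higher and 5 lower.

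Upstream, 1 of 10 genes of LIF and STAT3 signalling was called. Gab1, the docking protein that couples gp130 to PI3K and ERK signalling, had 363 ± 57.5 CPM in the Dom line (SD, n = 4) against 112 ± 28.3 CPM in the Cast line (SD, n = 3), 1.70 higher in log2 units (SE 0.18, edgeR adjusted p = 0.00258). Gab1 lies on chromosome 8 and was still called when libraries were scaled by chromosome (adjusted p = 0.00452). The receptor genes Lifr (-0.18) and Il6st (-0.03), Jak1 (0.20), Stat3 (0.20) and the feedback inhibitor Socs3 (-0.33) were not called (edgeR adjusted p between 0.298 and 0.901). The median of the list was -0.06. Pim1, a kinase gene induced by STAT3, was also called with the sample set in the fit, lower in the Dom line (-0.43, edgeR adjusted p = 0.0144).

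None of the 8 genes of the Wnt and GSK3 branch was called by edgeR, with 2 at an unadjusted p under 0.05 and 1 called by DESeq2, at a median log2 fold change of 0.08. Tcf7l1, the repressor of Esrrb and other naive genes, was at 0.31 (SE 0.16, edgeR adjusted p = 0.358), and the gene called by DESeq2 was the Wnt target Axin2, which edgeR called with the sample set in the fit (0.66, adjusted p = 0.00450). Of 18 genes that act in or mark the exit from naive pluripotency 1 was called, the receptor gene Fgfr1, higher in the Dom line at 81.3 ± 9.29 CPM (SD, n = 4) against 51.1 ± 4.16 CPM (SD, n = 3; log2 fold change 0.67, edgeR adjusted p = 0.0216). Fgfr1 lies on chromosome 8 and was not called when libraries were scaled by chromosome (adjusted p = 0.270). The median of that list was 0.03. DESeq2 called 3 of these genes, Fgfr1, Fgf5 and Rbpj. In the fit with the sample set Fgfr1 was higher and 3 genes were lower in the Dom line, Fgf5, the Notch effector gene Rbpj (-0.44, edgeR adjusted p = 0.00635) and the zinc-finger gene Zfp281 (-0.30, adjusted p = 0.0431). Fgf5 and Rbpj lie on chromosome 5 (median log2 fold change -0.40) and Zfp281 on chromosome 1 (-0.15). None of these 3 was called when libraries were scaled by chromosome without the sample set (edgeR adjusted p = 0.515, 0.924 and 0.525).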

How the data were processed

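ChrRNA-seq was analyzed in 7 libraries, 4 of iXist-ChrX-Dom and the other 3 of iXist-ChrX-Cast. The authors removed rRNA reads with Bowtie2 2.3.2, aligned with STAR 2.4.2a to an N-masked mm10 genome keeping unique alignments, split fragments by allele with SNPsplit, and deposited strand-specific featureCounts 1.5.2 counts over whole transcripts, introns included, in total and per allele. Fragments without an informative SNP, or shared by overlapping genes, are absent from the counts concerned, and fragments matching pseudogene copies, as for Nanog, Pou5f1 and Zfp42, were kept only where unique. The deposited X-linked allelic ratio tables (fraction) served only to check which allele each column holds, and hold no member.

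Here edgeR 4.0.16 tested counts (filterByExpr, TMM) over 15186 genes, and allele-assigned counts with a mean of at least 10 on an allele over 12727 genes. The SE given with an edgeR value is the absolute log2 fold change divided by the square root of the F statistic. limma 3.58.1 tested log2 of Cast over Dom counts (0.5 added) over 12931 genes with at least 10 allelic fragments in 6 of 7 libraries. P-values are Benjamini-Hochberg adjusted over all genes, two-sided, with a threshold of 0.05. On simulated data with 200 genes changed by a log2 value of 1, edgeR recovered 83.5% for total counts between lines (15021 genes) and limma 88% for the allelic test (12931 genes), with 5.11% and 7.85% of calls false. DESeq2 recovered 89% between lines with 13.6% of calls false (15021 genes). The changed genes were drawn from the better counted ones, and no difference between the sample sets was simulated in these runs. For the allelic test the spread between libraries was set by hand to the same value for all genes and not estimated from these data. These rates therefore do not give the recovery of smaller differences or of genes with few fragments. The allelic rates also do not give the recovery at the spread of these libraries. Alternatives were DESeq2 1.42.0, other scalings, filters, references and covariates, and leaving out each library. Depth was 14877384 to 24309806 fragments.

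The main tests between the lines held the line as the only term, and the replicate number was a block in alternative fits only. Same-numbered libraries deviated together from their line means (correlations over 15186 genes of 0.32, 0.27 and 0.45). Replicates 1 and 2 correlated about as much across numbers (0.36 and 0.31). These correlations come from the data and not from the labels, and they do not separate pairing by number from the split into sample sets. All 10 members are named. Genes of the pathway lists are counted and given values where called, at most 5 a list. Others named from the lists were chosen after their values were seen. A called gene of the wider network list is not reported here. For each member the most alike tested gene on another chromosome is named. The members and lists were chosen with earlier results of these data known.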

Additional observations from a re-analysis of the deposited data

Results flagged for a closer look

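In 40 groups of 4 libraries (total, Cast-assigned and Dom-assigned CPM and the Cast share of each factor in iXist-ChrX-Dom), Dixon's test marked 1 value, and chance marks about 1 in 20 groups. Tbx3 was at 70.6 CPM in iXist-ChrX-Dom replicate 1, and the nearest other library was at 61.2 CPM, a gap of 0.925 of the whole range, above the 95% critical value for 4 samples. All iXist-ChrX-Cast libraries lay above it, at 113 CPM or more, and without this replicate Tbx3 remained lower in iXist-ChrX-Dom.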

How the results depend on the processing

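Tbx3 in total counts kept its direction and its call under every alternative run. Among calls that changed and are not given above were Tfcp2l1 in total counts with library size alone (edgeR adjusted p = 0.0494), Tfcp2l1 on the Cast allele with RLE scaling (0.0508), and the ratio of Klf5 in iXist-ChrX-Dom with at least 20 or 50 allelic fragments per library or on the untransformed share (called by limma in each). The ratio of Klf2 in iXist-ChrX-Dom was called against all autosomal genes (0.000265). Between the sample sets, Tbx3 was called higher in replicates 1 and 2 without iXist-ChrX-Dom replicate 2 (0.27, edgeR adjusted p = 0.0430), and lower were Klf4 without iXist-ChrX-Cast replicate 2 (-0.31, 0.0350) and Esrrb without iXist-ChrX-Cast replicate 1 (-0.25, 0.0436) or replicate 3 (-0.30, 0.0478). The number of genes called between the lines in total counts (443) was 1094 with DESeq2, 103 with chromosome offsets, 1685 with replicates 1 and 2 only, 2398 with the sample set and 1269 with chromosome offsets and the sample set, an alternative chosen after seeing the data. With the replicate block it was 1794. Leaving out 1 library gave 18 (without iXist-ChrX-Cast replicate 2) to 1206 (without iXist-ChrX-Cast replicate 3). Between replicates 1 and 2 and replicates 3 and 4 (4606) it was 2851 within iXist-ChrX-Dom and 2518 (without iXist-ChrX-Cast replicate 3) to 4501 with 1 library left out. On the Cast allele (1772) it was 2789 with the sample set and 1326 to 2207 with 1 library left out. On the Dom allele (613) it was 1230 with the replicate block, 1414 with the sample set and 449 to 990 (without iXist-ChrX-Cast replicate 3) with 1 library left out. For the allelic ratio between the lines (442) it was 2123 against all autosomal genes and 344 to 440 with 1 library left out, and against the chromosome 6018 to 6867 in iXist-ChrX-Dom and 4996 to 6083 in iXist-ChrX-Cast. The block changed no call of a member beyond those given with the results, and the cause of these changes was not tested.

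Log2 values changed sign as follows. With chromosome offsets and the sample set, total counts of Klf2 were at -0.00506 and of Zfp42 at -0.0393. Within iXist-ChrX-Dom the sample-set difference of Tfcp2l1 was -0.0218. For the allelic ratio between the lines Nanog was at -0.0265 against genes within 10 Mb, and against all autosomal genes Klf2 was at 0.28, Klf5 at -0.21, Tbx3 at -1.0, Tfcp2l1 at 0.12 and Zfp42 at 0.95. Klf5 in iXist-ChrX-Cast was at 0.0866 against all autosomal genes, the only sign change of a call. With 1 library left out, Pou5f1 ranged from -0.40 to 0.13 in total counts, -0.55 to 0.42 on the Cast allele, -0.38 to 0.11 on the Dom allele, -0.485 to 0.0242 for its ratio in iXist-ChrX-Cast and -0.13 to 0.38 for its ratio between lines. Klf2 ranged from -0.0151 to 0.279 for its ratio in iXist-ChrX-Dom and -0.0483 to 0.542 on the Dom allele. Ratios between lines ranged from -0.0606 to 0.121 for Nanog, -0.0388 to 0.082 for Tbx3 and -0.104 to 0.00515 for Tfcp2l1. Tfcp2l1 ranged from -0.0159 to 0.231 between the sample sets and Prdm14 from -0.174 to 0.0112 on the Cast allele. Klf2 (39 to 133 allelic fragments) and Pou5f1 (118 to 416) had the fewest fragments behind their ratios.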
